A study of Mus musculus with 12 samples.

Results

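Afap1l2, Nell1, Tmcc3, Rerg, Rtn4rl1 and Pak3 are 6 genes that have been little studied in the developing testis. They were chosen because, in an earlier fit of these arrays, each had a large difference between E12.5 and E11.5 in XY support cells. All 16 probe sets annotated to them were read, among 34328 probe sets that name 1 gene and 17996 genes in all. By their most changed probe set in XY, their ranks among these genes were 2 for Afap1l2, 4 for Nell1, 5 for Tmcc3, 9 for Rerg, 10 for Rtn4rl1 and 43 for Pak3. The choice used the XY arrays of both days, so for these 6 genes every value that rests on those arrays is given as a description, and only their XX values were tested. Related genes, listed by family and function, were tested in all comparisons.

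The study read somatic support cells, sorted by flow cytometry from mouse gonads, on Affymetrix arrays to look for genes that act in gonadal sex determination. Its 4 groups are XY cells of testes at embryonic day 12.5 (E12.5), XY cells of testes at E11.5, XX cells of ovaries at E12.5 and XX cells of ovaries at E11.5, with 3 pools of cells and 1 array per pool in each. All 4 groups share an FVB.Cg background with the transgene Tg(Tyr)3412ARpw and, as a second one, Tg(Sry-EGFP)92EI, a green fluorescent reporter named for Sry, so that XX and XY cells alike carried both. No untreated or transgene-free group was analysed here, and nothing in the labels says that pools of 1 group came from separate litters, so the spread between pools may be partly technical.

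Support cells become Sertoli cells in the testis and pregranulosa cells in the ovary, and Sry starts the Sertoli course in XY cells. In bulk pools, fewer cells of a type and less RNA per cell cannot be told apart. The 6 genes have different known roles. Afap1l2 encodes an adaptor protein that couples tyrosine kinases to phosphoinositide 3-kinase, and Nell1 a secreted glycoprotein with EGF-like repeats that promotes bone formation. Rtn4rl1 encodes a Nogo receptor homologue tethered to the cell surface by a lipid anchor. Rerg encodes a small Ras-like GTPase described in human breast tumours as oestrogen-regulated and growth-inhibiting, Pak3 a kinase that the GTPases Rac and Cdc42 activate and that is best known in neurons, and Tmcc3 a coiled-coil membrane protein of the endoplasmic reticulum. Probe sets are short groups of probes for 1 transcript region. The ending _s_at marks probes shared by several transcripts, and _x_at marks probes that may also bind others.

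Values are log2 signals per probe set. Array medians lay between 6.49 and 6.59, and the number of arrays limits the precision. The sex of every label was borne out: Eif2s3y, a Y-linked gene, read 10.85 to 11.36 in XY and 3.68 to 4.0 in XX at its brightest probe set. The level without a target was taken from 4 probe sets for Y-linked genes (Eif2s3y, Kdm5d, Uty) whose XY mean was at least 2 log2 units above their XX mean. In XX they read 3.33 to 5.17. Some Y-linked probe sets left out by this rule read higher in XX, such as Kdm5d 1452562_at with 5.43 to 6.04. Values somewhat above 5.17 may thus also be read without a target. Both lists of fate markers matched the labels at E12.5, but only the Sertoli mean kept the sexes apart at E11.5. The mean of 6 Sertoli markers (Sox9, Amh, Dhh, Ptgds, Fgf9 and Cbln4) was 10.88 to 11.21 in XY E12.5 and 8.80 to 9.96 in XY E11.5. In XX it was 6.83 to 7.04 at E12.5 and 7.16 to 7.40 at E11.5. The mean of 6 pregranulosa markers was 7.24 to 7.51 in XY E12.5 and 11.25 to 11.42 in XX E12.5. At E11.5 it overlapped between the sexes, with 8.10 to 8.57 in XY and 8.30 to 9.47 in XX. Pool 2 of XX E11.5 stood apart: its 8 endothelial markers lay 1.92 and its 5 measured mesenchyme markers 1.79 above their 12-array means, against -0.56 to 0.35 and -0.67 to 0.26 on the other arrays. Results on XX E11.5 that this pool moved are given with and without it.

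The 6 genes lie on 6 chromosomes of the GRCm38.p6 assembly, with Rerg at chr6:137054825-137170496, Nell1 at chr7:49975350-50863289, Tmcc3 at chr10:94311682-94590954, Rtn4rl1 at chr11:75193993-75267769, Afap1l2 at chr19:56912354-57028589 and Pak3 at chrX:143518366-143797796. Pak3 is thus the X-linked member. The RefSeq promoter table of that assembly held 1 transcript start for Nell1, 1 for Afap1l2, 6 for Tmcc3 and 3 for Pak3. The windows of Nell1 and Afap1l2 are printed because these 2 genes ran closest together over the arrays. Each holds the 250 bases before the start, 5′ to 3′ on the strand of the gene, with matches to the motifs named after them in capitals.
Nell1: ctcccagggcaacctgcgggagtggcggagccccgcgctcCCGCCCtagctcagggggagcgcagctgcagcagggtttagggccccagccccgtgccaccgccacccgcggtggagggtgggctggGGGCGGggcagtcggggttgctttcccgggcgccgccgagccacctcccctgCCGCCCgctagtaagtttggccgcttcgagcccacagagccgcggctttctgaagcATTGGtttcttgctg
Afap1l2: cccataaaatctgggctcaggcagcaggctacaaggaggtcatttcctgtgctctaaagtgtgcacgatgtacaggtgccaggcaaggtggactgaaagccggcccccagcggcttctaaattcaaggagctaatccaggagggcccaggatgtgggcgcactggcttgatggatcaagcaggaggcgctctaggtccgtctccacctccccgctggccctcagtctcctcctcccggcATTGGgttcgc

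The Nell1 window is chr7:49975100-49975349 on the plus strand, directly upstream of the annotated gene. The Afap1l2 window is chr19:57008576-57008825 on the minus strand and lies inside the annotated span of the gene, which also has an outer start. The Nell1 window held 72.0% G and C with 22 CpG pairs and the Afap1l2 window 59.6% with 9, against medians of 52.4% and 6 over 32851 windows. Both windows held 1 CCAAT box (CCAAT, here ATTGG on the other strand), starting 15 bases before the start in Nell1 and 11 in Afap1l2, a motif present in 33.8% of all windows. Nell1 alone of the 2 held GC boxes (GGGCGG or CCGCCC; 32.7% of windows). Neither held the letters AACAAT (9.4% of windows) or AACAAAG (5.0%) of SOX factors, AGATAA (10.0%) of GATA factors, AAGGTCA (4.1%) of NR5A1 or TATAAA (12.4%). All motifs were searched on both strands, and a match or its lack describes these letters only.

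In XY cells the lead probe set of each gene, the one with the largest day difference, was high at E12.5 on all 3 arrays. Of the 16 probe sets, 12 read higher on every E12.5 array than on any E11.5 array in XY, which is so for 13.8% of all probe sets, and 0 were lower on every array, against 13% of all. Over 2-fold higher were 10 of 16 against 4.68% of all. In the limma fit 10 had an adjusted p under 0.05 in the higher direction against 3.18% of all. These counts follow from how the genes were chosen on the same arrays. They are given as a description and are no test of the 6 genes, so no excess over all probe sets is read from them. Other marker lists went different ways. The mean of 7 macrophage markers was 6.88 to 7.11 in XY E12.5 and 6.0 to 6.4 in XY E11.5. That of 3 measured glial and neural crest markers (Sox10, S100b and Foxd3, of 5 listed) was 6.25 to 6.46 and 5.78 to 6.02. The mean of 3 measured mesonephric markers was lower at E12.5, with 5.89 to 6.01 against 6.1 to 6.37. Those of endothelial, mesenchyme, steroidogenic, germ cell and neuronal markers overlapped between the days. Which cells gave these signals, and their part in the values of the 6 genes, was not tested. The median difference of the 16 was 2.04 log2 units, against 0.02 over all probe sets.

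**Figure D1:**
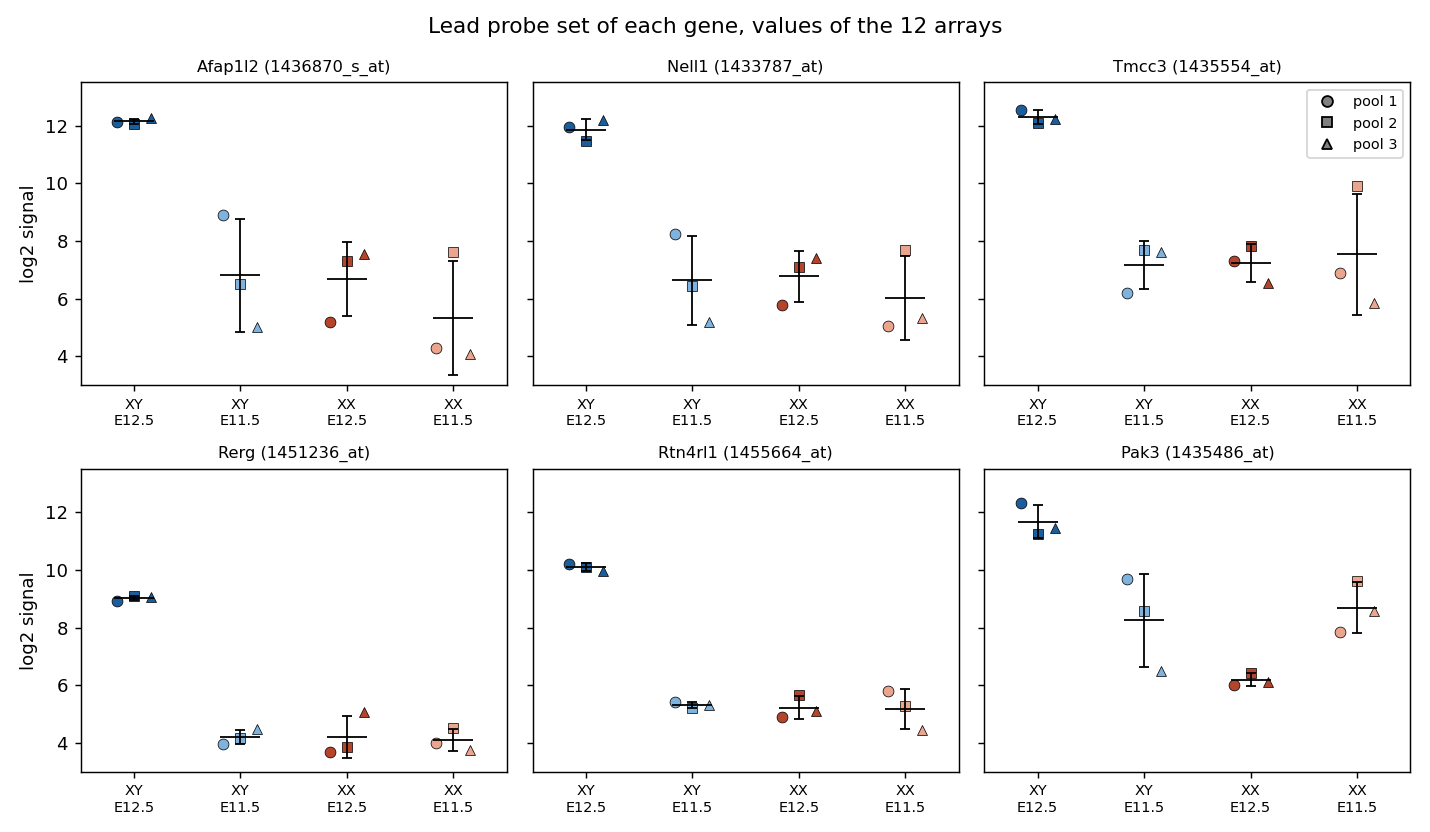
Log2 signal (vertical axis) of the lead probe set of each of the 6 genes on the 12 arrays, in the 4 groups of 3 pools (symbols: pool 1, 2 and 3; bars: mean and SD). The 3 XY E12.5 arrays stand above the other 9 in every panel, and for Pak3 the XX E12.5 arrays are the lowest at 6.02 to 6.44.

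Afap1l2, the adaptor gene, read 12.14, 12.06 and 12.25 in XY E12.5 at its lead probe set 1436870_s_at, against 8.90, 6.49 and 5.03 in XY E11.5. In XX it read 5.2, 7.29 and 7.53 at E12.5 and 4.29, 7.60 and 4.07 at E11.5. The XY E12.5 pools lay within 0.19 of each other, while each of the other groups spread over more than 2 log2 units and overlapped with the rest. Without XX E11.5 pool 2 (7.60), the XX E11.5 arrays (4.29 and 4.07) lay below all others. The XY day difference was 5.34 ± 1.11 (SE), a fold of 40.6 with a 95% interval of 7.28 to 227. Its width rests on the spread within all 4 groups together, which was largest at E11.5 (SD 1.95 in XY and 1.98 in XX). Without 1 array the difference was between 4.45 and 6.39.

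The other Afap1l2 probe set, 1455833_at, was designed from the same source sequence. It read 7.77, 7.19 and 7.47 in XY E12.5, against 4.99, 4.61 and 4.61 in XY E11.5, 4.65, 4.65 and 4.75 in XX E12.5 and 4.75, 4.74 and 4.13 in XX E11.5. It was dimmer than the lead on 10 of the 12 arrays and read slightly above it in pools 1 and 3 of XX E11.5. The 9 arrays outside XY E12.5 lay close together at a level inside the no-target range of the Y-linked probe sets. Its day difference in XY was 2.74 ± 0.20, a fold of signal of 6.67 with a 95% interval of 4.9 to 9.09. The fold of transcript may be larger. The pool differences seen at the lead probe set were hardly visible at this one: XY E11.5 pools 1 and 3, which differed by almost 4 log2 units at the lead, read 4.99 and 4.61 here.

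Nell1, the secreted glycoprotein gene, read 11.94, 11.46 and 12.19 in XY E12.5 at 1433787_at, against 8.24, 6.45 and 5.19 in XY E11.5. The XX values were 5.78, 7.10 and 7.42 at E12.5 and 5.04, 7.70 and 5.34 at E11.5. All XY E12.5 arrays stood more than 3 log2 units above the highest other array, and the other groups overlapped. The XY day difference was 5.24 ± 0.84 (fold 37.7, 95% interval 10.3 to 139). The second Nell1 probe set, 1447076_at, stayed between 3.57 and 4.02 on all 12 arrays, with 3.92 ± 0.06 in XY E12.5 and 3.92 ± 0.09 in XY E11.5 (SD, n = 3). That is the level of a Y-linked probe set without its target, and it came from another source sequence. The day difference of Nell1 therefore rests on 1 of 2 probe sets.

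Nell1 and Afap1l2 ran together not only between groups but also between pools. Over the 12 arrays their lead probe sets had a Pearson r of 0.99, and each was the nearest gene to the other among all named genes. After the mean of each group was taken off, r over the 12 deviations was 0.98. Without XX E11.5 pool 2 these values were 0.99 and 0.97. In XY E11.5 both were highest in pool 1 and lowest in pool 3. In XX E11.5 both were highest in pool 2, and in XX E12.5 both were lowest in pool 1. The second Afap1l2 probe set had r = 0.94 with the Nell1 lead, and the second Nell1 probe set r = 0.19 with the Afap1l2 lead. The deviations of the Pak3 lead had r = 0.84 with those of Nell1 and 0.79 with those of Afap1l2, while all other pairs of the 6 leads lay between -0.15 and 0.35. Without XX E11.5 pool 2 the Pak3 values were 0.81 and 0.76, and the other pairs lay between -0.62 (Nell1 and Tmcc3) and 0.48 (Tmcc3 and Rtn4rl1). These values share arrays and amplification and are given without a test. This pair was singled out after its values were seen.

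**Figure D2:**
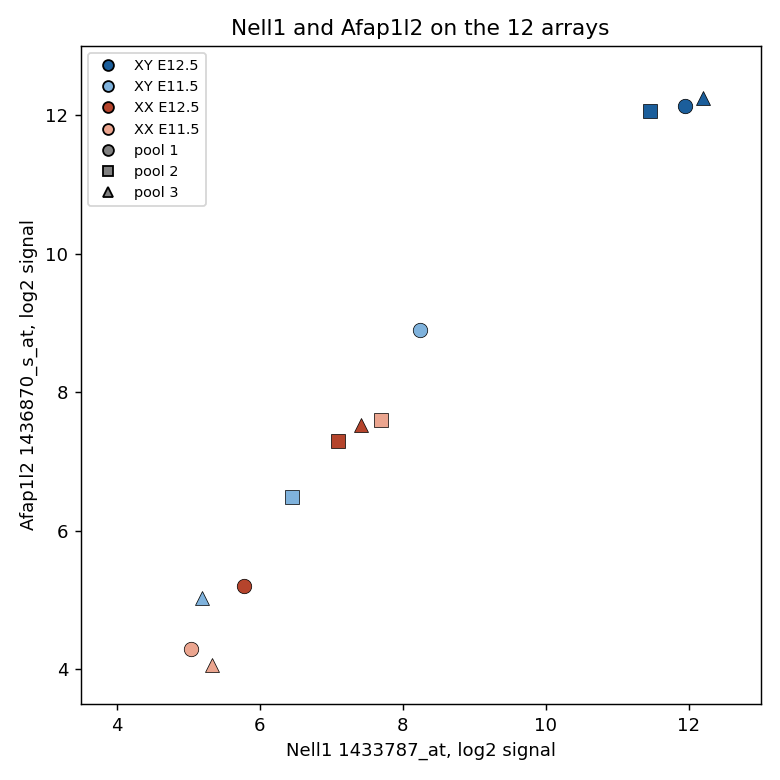
Log2 signal of Afap1l2 (vertical axis, 1436870_s_at) against that of Nell1 (horizontal axis, 1433787_at), 1 point per array, coloured by group and shaped by pool number. The points lie along 1 line, with the 3 XY E12.5 arrays at the top (Nell1 11.46 to 12.19) and pool 1 of XY E11.5 next (8.24).

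The order of the XY E11.5 pools in these 2 genes was also that of the mean of the 6 Sertoli markers, which lay 1.32, 0.62 and 0.16 above its 12-array mean in pools 1, 2 and 3. Single markers differed: Dhh, the desert hedgehog ligand gene, had this order with 9.76, 8.53 and 7.34, while Sox9 with 11.5, 10.04 and 10.11 and Amh with 6.48, 6.55 and 6.48 did not. Pak3 had the same order with 9.68, 8.59 and 6.49, as had its sister probe sets 1417923_at and 1417924_at, but not its sister 1437318_at with 7.58, 6.08 and 6.16. Tmcc3, Rerg and Rtn4rl1 did not have it at their leads: Tmcc3 read 6.20, 7.67 and 7.63 there, Rerg 3.97, 4.16 and 4.47, and Rtn4rl1 5.41, 5.21 and 5.33. In XX cells the Sertoli markers moved little, with deviations of -1.81 to -1.24, where Nell1 and Afap1l2 spread over more than 2 log2 units. Whether the stage of a pool had a part in its levels was not tested.

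Tmcc3, the endoplasmic reticulum protein gene, had the most probe sets, 5, and they did not read alike. The lead, 1435554_at, read 12.55, 12.09 and 12.24 in XY E12.5, against 6.20, 7.67 and 7.63 in XY E11.5, 7.30, 7.84 and 6.55 in XX E12.5 and 6.89, 9.89 and 5.84 in XX E11.5. Pool 2 of XX E11.5 was the highest array outside XY E12.5, in the same pool that was rich in endothelial and mesenchyme markers; their part in its level was not tested. The XY day difference was 5.13 ± 0.86 (fold 35.0, 95% interval 9.23 to 133).

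The Tmcc3 probe set 1434252_at had the same shape at a lower level. It read 7.95, 9.25 and 7.86 in XY E12.5, against 5.97, 5.72 and 5.66 in XY E11.5, 5.47, 5.63 and 5.35 in XX E12.5 and 5.61, 7.08 and 5.30 in XX E11.5. Again XX E11.5 pool 2 was the highest outside XY E12.5. Its XY day difference was 2.57 ± 0.46 (fold 5.94, 95% interval 2.93 to 12.1). Y-linked probe sets read up to 6.04 in XX without a target, above its XY E11.5 values, so the fold of transcript may be larger.

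The other 3 Tmcc3 probe sets moved far less. The probe set 1454889_x_at read 7.32, 7.70 and 7.29 in XY E12.5, against 6.64, 6.80 and 7.07 in XY E11.5, and differed by 0.60 ± 0.17. For 1434253_s_at and 1451794_at the XY day differences were 0.31 ± 0.13 and 0.25 ± 0.12, and their XY groups overlapped. Both 1434253_s_at and 1454889_x_at were designed from the same source sequence as 1434252_at, so 1 source gave differences of 2.57, 0.60 and 0.31. The mean over all 5 probe sets differed by 1.77 between the days in XY, against 5.13 at the lead. The table lists 6 transcript starts for Tmcc3, but probe positions were not used here, so the probe sets could not be set against transcripts.

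Rerg, the Ras-like GTPase gene, has 1 probe set, 1451236_at. It read 8.94, 9.09 and 9.07 in XY E12.5, against 3.97, 4.16 and 4.47 in XY E11.5, 3.70, 3.87 and 5.06 in XX E12.5 and 4.0, 4.51 and 3.77 in XX E11.5. All 9 arrays outside XY E12.5 lay inside the range of Y-linked probe sets without a target, and the 3 XY E12.5 arrays within 0.15 of each other. The XY day difference was 4.83 ± 0.33, a fold of signal of 28.5 with a 95% interval of 17.2 to 47. At such a low level the fold of transcript may be larger. No sister probe set could be compared.

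Rtn4rl1, the Nogo receptor homologue gene, read 10.22, 10.11 and 9.97 in XY E12.5 at 1455664_at, against 5.41, 5.21 and 5.33 in XY E11.5. In XX it read 4.90, 5.66 and 5.10 at E12.5 and 5.80, 5.29 and 4.44 at E11.5. The XY E12.5 arrays stood apart by over 4 log2 units, and the other 3 groups overlapped at a low level. Y-linked probe sets read up to 6.04 in XX without a target, so the fold of transcript may be larger than that of signal. The XY day difference was 4.79 ± 0.30 (fold 27.6, 95% interval 17.3 to 44.1), the smallest SE among the 6 leads. Its sister, 1436868_at, from another source sequence, read 7.12, 6.32 and 6.36 in XY E12.5, against 5.78, 5.50 and 5.67 in XY E11.5. The direction was the same, but its difference was 0.94 ± 0.22. On the 9 arrays outside XY E12.5 the sister read on average slightly above the lead, by 0.30 to 0.34 per group, whereas in XY E12.5 the lead exceeded it by 3.5.

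Pak3 is the gene of a kinase that Rac and Cdc42 activate. Its lead, 1435486_at, read 12.34, 11.26 and 11.44 in XY E12.5, against 9.68, 8.59 and 6.49 in XY E11.5. In XX it read 6.02, 6.44 and 6.10 at E12.5 and 7.86, 9.62 and 8.59 at E11.5. At E11.5 the sexes overlapped. At E12.5 the XY arrays were all above, and the XX arrays all below, every array of their own sex a day earlier. The XY day difference was 3.43 ± 0.71 (fold 10.8, 95% interval 3.59 to 32.2).

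The Pak3 probe set 1417923_at showed the same arrangement, with 9.84, 10.49 and 9.52 in XY E12.5, against 8.89, 8.53 and 7.93 in XY E11.5, and 6.90, 5.85 and 5.30 in XX E12.5, against 7.71, 8.64 and 8.29 in XX E11.5. So did 1437318_at, with 8.17, 7.91 and 8.20 in XY E12.5, against 7.58, 6.08 and 6.16 in XY E11.5, and 5.42, 5.50 and 5.17 in XX E12.5, against 6.72, 6.61 and 5.97 in XX E11.5. Their XY day differences were 1.5 ± 0.43 and 1.49 ± 0.36. The fourth probe set, 1417924_at, read 4.26 to 6.01 over all 12 arrays, and its groups overlapped in every comparison. It was designed from the same source sequence as 1417923_at.

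**Figure D3:**
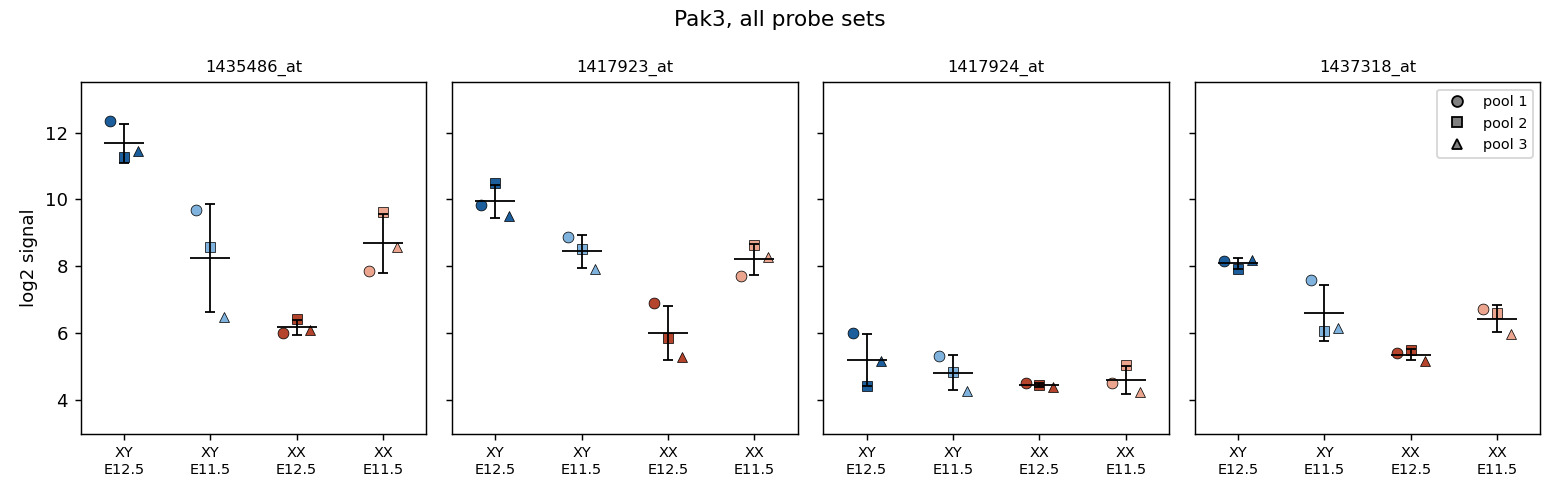
Log2 signal (vertical axis) of the 4 Pak3 probe sets on the 12 arrays by group (symbols: pools; bars: mean and SD of 3). In 3 of the 4 probe sets the XY E12.5 arrays lie above the XY E11.5 arrays and the XX E12.5 arrays lie below the XX E11.5 arrays; 1417924_at stays between 4.26 and 6.01.

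The XX arrays took no part in choosing the genes, and there 1 of the 16 probe sets passed the test between E12.5 and E11.5. This was Pak3 1417923_at, which fell by 2.19 ± 0.43 log2 units in XX (4.58-fold lower at E12.5, 95% interval 2.36 to 8.90; limma, adjusted p = 0.0293), with all 3 E12.5 arrays below all 3 E11.5 arrays. Of all 44238 probe sets 3.11% passed in XX, 1.43% in the lower direction. The sister Pak3 probe sets had differences of -2.50 ± 0.71 and -1.07 ± 0.36 without passing (limma, adjusted p = 0.0826 and 0.121), also with no overlap, and 1417924_at differed by -0.15 ± 0.38. No overlap in the lower direction was seen at 9.93% of all probe sets. The call of 1417923_at ended without XX E11.5 pool 2 (-1.98, adjusted p = 0.0878), without XX E11.5 pool 3 (-2.16, 0.0803), without XX E12.5 pool 2 (-2.11, 0.11) and without XX E12.5 pool 3 (-1.84, 0.113). The XX E11.5 mesenchyme and endothelial markers were 8.57 to 10.45 and 6.11 to 8.49 on average, against 7.98 to 8.5 and 6.01 to 6.50 in XX E12.5, with pool 2 as the high array. Without that pool the Pak3 difference was -2.04 at the lead and -1.98 at 1417923_at.

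None of the other 5 genes passed in XX. The differences at the leads were 1.35 ± 1.11 for Afap1l2, 0.74 ± 0.84 for Nell1, -0.31 ± 0.86 for Tmcc3, 0.11 ± 0.33 for Rerg and 0.05 ± 0.30 for Rtn4rl1 (limma, adjusted p from 0.51 to 0.947). The 95% intervals set different limits. For Rerg it ran from -0.61 to 0.84 and for Rtn4rl1 from -0.63 to 0.72, so a 2-fold change of signal lay outside both. Yet the XX arrays of Rerg read 3.7 to 5.06, inside the no-target range of 3.33 to 5.17. The XX means of Rtn4rl1 were 5.22 at E12.5 and 5.17 at E11.5, at the upper edge of that range. Signals this low may not follow the transcript, so these intervals do not limit its change. For Afap1l2 the interval ran from -1.13 to 3.83, for Nell1 from -1.14 to 2.62 and for Tmcc3 from -2.23 to 1.61, and a change of 2-fold or more was not excluded. Without XX E11.5 pool 2 the differences were 2.49 for Afap1l2, 1.58 for Nell1 and 0.87 for Tmcc3, none of which passed (limma, adjusted p = 0.236, 0.326 and 0.428). Over the 16 probe sets the median was 0.06 log2 units in XX, as it was over all probe sets.

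**Figure D4:**
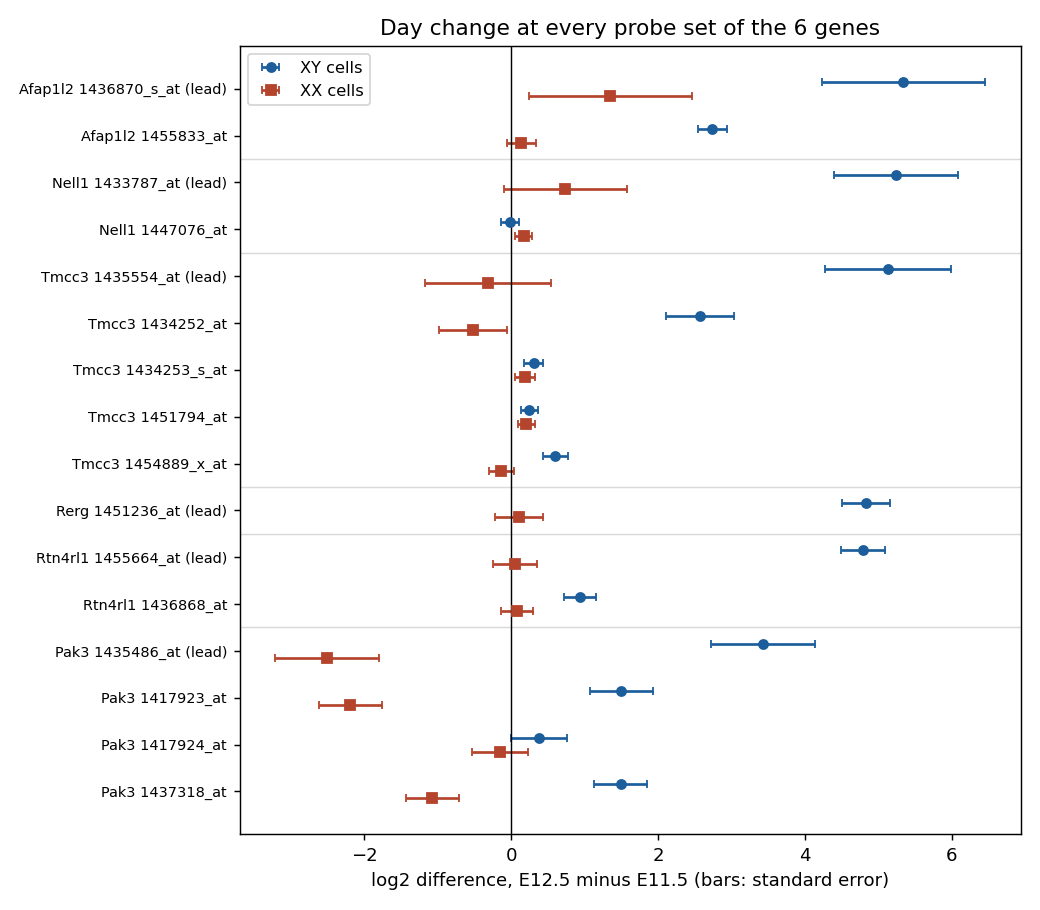
Log2 difference E12.5 minus E11.5 (horizontal axis; bars: standard error from the fit) at each of the 16 probe sets, in XY cells (circles) and XX cells (squares), grouped by gene with the lead probe set first. In XY the leads lie between 3.43 and 5.34, while sisters of the same gene reach down to -0.01; in XX only Pak3 probe sets lie beyond -1.

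At E12.5 the sexes were apart at the same probe sets. XY read above XX with no overlap at 12 of 16 probe sets, against 14.2% of all, and over 2-fold higher at 11, against 4.93%. The XY E12.5 arrays are those that chose the genes, so nothing is read from these counts. The differences of XY minus XX at the leads were 5.49 ± 0.71 for Pak3, 5.47 ± 1.11 for Afap1l2, 5.10 ± 0.84 for Nell1, 5.07 ± 0.86 for Tmcc3, 4.88 ± 0.30 for Rtn4rl1 and 4.82 ± 0.33 for Rerg. These 6 leads thus lay within 1 log2 unit of each other. For Pak3 the difference was larger than its XY day difference of 3.43, since XX E12.5 was also lower than XX E11.5.

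At E11.5 the sexes overlapped at all 16 probe sets; of all probe sets 6.62% were higher and 3.5% lower in XY with no overlap. The leads differed by 1.48 ± 1.11 (Afap1l2), 0.60 ± 0.84 (Nell1), 0.14 ± 0.30 (Rtn4rl1), 0.10 ± 0.33 (Rerg), -0.38 ± 0.86 (Tmcc3) and -0.44 ± 0.71 (Pak3), all XY minus XX. Each was within 2 SE of 0. Sox9, the transcription factor of Sertoli fate, read 11.50, 10.04 and 10.11 in XY E11.5 at its brightest probe set, against 5.6, 6.55 and 6.58 in XX E11.5. With all arrays of that day, the sexes were therefore apart for Sox9 and overlapped for these 6 genes. At the Afap1l2 lead this overlap rests on XX E11.5 pool 2 (7.60). Pools 1 and 3 read 4.29 and 4.07, below every XY E11.5 array (8.90, 6.49 and 5.03). The Tmcc3 probe set 1434252_at also overlapped only through pool 2, by a small margin (5.61 and 5.30 against 5.97, 5.72 and 5.66). Without XX E11.5 pool 2 the differences were 2.63 for Afap1l2, 1.44 for Nell1, 0.80 for Tmcc3 and 0.03 for Pak3.

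The order of the 4 groups can be stated for each gene as far as the spread allows. XY E12.5 was highest for all 6 leads. Below it, XY E11.5, XX E12.5 and XX E11.5 overlapped for Afap1l2, Nell1, Tmcc3, Rerg and Rtn4rl1 with all arrays. Without XX E11.5 pool 2, XX E11.5 came last for Afap1l2 (4.29 and 4.07, against 5.03 or more in XY E11.5 and 5.2 or more in XX E12.5). For Nell1 it then lay below XX E12.5 (5.04 and 5.34 against 5.78 or more) and still overlapped with XY E11.5. For Pak3 XY E11.5 and XX E11.5 overlapped, and XX E12.5 came last, its highest array (6.44) being below the lowest of XY E11.5 (6.49) by a small margin.

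The genes with the pattern most like each lead over the 12 arrays, by Pearson r, differed between members. For Rerg they were Ttyh1 (0.989), Dtna (0.986) and Serpina5 (0.983), and for Rtn4rl1 the dimmer Afap1l2 probe set (0.989), Epyc (0.989), a small leucine-rich proteoglycan gene, and Serpina3a (0.988). These probe sets, like both members, were low outside XY E12.5: Epyc differed by 4.65 and Serpina5, a serine protease inhibitor gene, by 4.67 between the days in XY, and by -0.18 and 0.02 in XX. The 3 other Ttyh1 probe sets had r between 0.41 and 0.95 with Rerg, and the 6 other Dtna probe sets between 0.16 and 0.93. For Afap1l2 and Nell1 the nearest besides each other were Usp39 (0.981 and 0.972), a splicing factor gene, and Polr3e (0.975 and 0.978), an RNA polymerase III subunit gene. Their XY day differences were only 0.66 and 1.02, so the shape was shared but not the size, and sister probe sets were unequal: the other Usp39 probe set had r = 0.91 with Afap1l2 and 0.88 with Nell1, and the other Polr3e probe set -0.26 and -0.32. For Tmcc3 the nearest were Lman2 (0.977), Bnip2 (0.959) and Parm1 (0.959), while the other Lman2 probe set had r = 0.54, the other Parm1 probe set 0.68, and the 7 other Bnip2 probe sets between -0.23 and 0.85.

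For Pak3 the nearest genes were Lrrc58 (0.974), Gna13 (0.969), a G protein alpha subunit gene, and Rhobtb3 (0.964). Lrrc58 was, like Pak3, higher at E12.5 in XY (1.56) and lower in XX (-1.27). The 6 other Gna13 probe sets had r between 0.05 and 0.88 and the 4 other Rhobtb3 probe sets between -0.15 and 0.39.

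Relatives of the 6 genes, meaning paralogues, receptors, ligands and partners, were listed by what they are, and their share that passed was near that of all genes in XY and at E12.5. Of 42 listed genes 39 were measured. Between the days in XY, 2 rose (Atraid and Rasl12) and 2 fell (Rtn4 and Tnfrsf19), 4 genes of 39 against 10.7% of all genes (6.08% higher and 4.67% lower). In XX 0 of 39 passed against 5.88% of all genes (limma; 16 had an unadjusted p under 0.05), and at E11.5 0 of 39 differed between the sexes against 0.0834% of all genes (limma; 6 with an unadjusted p under 0.05). The share of all genes with an unadjusted p under 0.05 was not counted, so nothing is read from the 16 and the 6. At E12.5 2 relatives were higher in XY (Rasl12 and Nck2) and 4 lower (Tmcc1, Esr1, Tnfrsf19 and Rac1), 6 of 39 against 13.9% of all genes (7.1% higher and 6.87% lower). The median difference of the 39 at their brightest probe sets was 0.05 between the days in XY, 0.16 in XX and -0.03 between the sexes at E12.5, against 0.06, 0.12 and 0.00 over all genes.

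None of the measured paralogues (Afap1, Afap1l1, Nell2, Tmcc1, Tmcc2, Rtn4r, Rtn4rl2, Pak2, Pak4 and Pak6) passed between the days in XY. Afap1 read 9.85 ± 0.50 in XY E12.5 and 9.51 ± 0.17 in XY E11.5 at its brightest probe set, and Nell2 6.94 ± 0.20 and 7.09 ± 0.08 (SD, n = 3), neither past the test. Tmcc1, the paralogue of Tmcc3, was lower in XY than in XX at E12.5 at 1 of its 4 probe sets (9.17 ± 0.24 against 10.38 ± 0.49; limma, adjusted p = 0.0153). Rtn4r and Rtn4rl2, the other Nogo receptor genes, differed by -0.08 ± 0.14 and 0.30 ± 0.12 between the days in XY and did not pass. Pak2, Pak4 and Pak6 did not pass in any of the 4 comparisons.

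Among receptors and partners, Atraid, listed here with the NELL family and its receptors, was 0.81 ± 0.20 higher at E12.5 in XY (limma, adjusted p = 0.042). In XX it differed by 0.76 ± 0.20 (limma, adjusted p = 0.0678). Rasl12, a further small GTPase gene, read 8.32 ± 0.36 in XY E12.5 and 6.90 ± 0.38 in XY E11.5 (limma, adjusted p = 0.00556). Tnfrsf19, a coreceptor gene of the Nogo receptor complex, fell by 2.75 ± 0.41 in XY at 1425212_a_at and by 1.14 ± 0.28 at its brightest probe set (limma, adjusted p = 0.00406 and 0.0434). Rtn4, which encodes Nogo itself, fell at 1 of its 5 probe sets (-2.14 ± 0.39; limma, adjusted p = 0.0117), while its brightest differed by -0.05 ± 0.17. Esr1, the oestrogen receptor alpha gene, was lower in XY at E12.5 at 2 of 3 probe sets, with 7.49 ± 1.88 in XY and 11.05 ± 0.34 in XX at the brightest (limma, adjusted p = 0.0179). Rac1 was 0.75 ± 0.16 lower and Nck2, an adaptor gene whose product binds PAK kinases, 1.35 ± 0.31 higher in XY at E12.5 (limma, adjusted p = 0.0179 and 0.0236), each at 1 of 3 probe sets.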

How the data were processed

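Sorted pools gave RNA (PicoPure), which 2 rounds of TargetAmp amplified before biotin labelling, per the labels' protocols. The authors deposited 1 table of log2 values per probe set and array. How they were background-corrected, normalized and summarised is not given in the sources used here, and the log base was inferred from the highest value of 14.45. Of 45037 probe sets, 798 had no value at all and 1 lacked some, which left 44238. Symbols came from the supplied probe set table, updated through Entrez identifiers with RefSeq (34126 matched); 34328 probe sets had 1 symbol, 850 several and 9060 none.

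A linear model of the 4 group means over all 12 arrays used limma 3.58.1 (R 4.3.3) with 8 residual degrees of freedom and two-sided tests, and a probe set passed where its p, adjusted by Benjamini-Hochberg across all 44238, was under 0.05. The fit was tested on simulated data. SE is that of the fit. Folds are folds of signal. Where the lower mean lay between 3.33 and 5.17, or up to the 6.04 read by Y-linked probe sets left out of that range, the fold of transcript may be larger. All p-values are limma's. The members and lists were chosen with earlier results of these data known. Named are all probe sets of the members, the 3 genes nearest to each lead probe set (clone names left out), relatives that passed, up to 4 per family, and markers of the 2 fates and of sex; paralogues named without passing and Lrrc58's values were chosen after their values were seen. A relative counts as passing if any of its probe sets did. Alternatives were array weights, a mean-dependent variance prior, quantile normalization, centring on array medians, only probe sets above the median mean signal, only the compared groups in the fit, pool number as a block, an average over each gene's probe sets, and leaving out each array. Correlations without XX E11.5 pool 2 were added after the data were seen. Figures were drawn with matplotlib 3.10.9.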

Additional observations from a re-analysis of the deposited data

Results flagged for a closer look

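Pak3 had day differences of opposite sign in the 2 sexes at 3 of its 4 probe sets, with every XY E12.5 array above every XY E11.5 array and every XX E12.5 array below every XX E11.5 array. At 1435486_at E12.5 minus E11.5 was 3.43 in XY and -2.50 in XX. At 1417923_at it was 1.5 in XY and -2.19 in XX. At 1437318_at it was 1.49 in XY and -1.07 in XX. This arrangement was seen at 292 of all 44238 probe sets, or 0.66%. That share is no fair measure for Pak3, because the XY part of the arrangement follows from how the gene was chosen. The XY part was seen at 6095 probe sets, and the 292 are those among them with the XX part too. The XX part alone was seen at 9.93% of all probe sets. The difference between the sexes was not tested, because Pak3 was chosen for its XY values.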

How the results depend on the processing

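The XY day differences, the E12.5 sex differences and the E11.5 sex differences of the member probe sets moved by less than the SD between pools in all 295 recomputed values of each comparison. This was largely fixed in advance. Leaving out 1 array of a group cannot move its mean by that much, and several other settings leave a difference unchanged. Nothing is read from this count. Averaging all probe sets of a gene in place of its lead moved the differences more: the XY day difference was then 2.62 for Nell1, 1.77 for Tmcc3, 2.87 for Rtn4rl1 and 1.70 for Pak3. In XX, 287 of 295 values kept their side of the threshold. The count of 1 member probe set that passed in XX was 0 with the compared groups alone in the fit and 0 to 3 without 1 array. It was 1 with the pool number as a block, where Pak3 1417923_at had an adjusted p of 0.0342. The pool numbers do not pair the samples by any label: deviations of same-numbered XX arrays correlated at 0.065, 0.153 and -0.104, and the block changed no call of a member. Without XY E11.5 pool 1 the Pak3 probe sets 1435486_at and 1437318_at passed as well (limma, adjusted p = 0.0496 and 0.0251), and without XY E11.5 pool 3 1435486_at did (0.0305).

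Member probe sets over 2-fold numbered 6 both between the days in XY and between the sexes at E12.5 when only probe sets above the median mean signal entered, against 10 and 11, because these hold 7 of the 16. Without 1 array they numbered 10 to 11 and 10 to 12, and at E11.5 0 to 2 against 1. Relatives that passed in XX, 0 in the fit given, were 1 among probe sets above the median mean signal, 1 with quantile normalization, 2 with array weights, 1 with the pool block and 0 to 2 without 1 array. Between the days in XY they were 2 to 5 without 1 array (2 without XY E11.5 pool 3), at E11.5 0 to 1, and at E12.5 12 with array weights and 3 to 9 without 1 array (3 without XY E12.5 pool 1). Over all probe sets, 1378 passed in XX, against 2405 with array weights, 624 with the compared groups alone and 183 without XX E12.5 pool 3. At E12.5 3416 passed, against 5794 with array weights, and at E11.5 30, against 12 with the compared groups alone. In XY 2726 passed, against 1277 without XY E11.5 pool 3. The cause was not tested. With 3 arrays per group the folds carry the sampling error of the fit, and values near background may hide a larger fold of transcript.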
